A study of Mus musculus with 10 samples.

Results

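Aldehyde dehydrogenases are enzymes that oxidise aldehydes to acids. The 10 genes described here, Aldh1a1, Aldh1a2, Aldh1a3, Aldh2, Aldh3a2, Aldh3b1, Aldh3b3, Aldh6a1, Aldh7a1 and Aldh9a1, were named one by one as the retinal, fatty aldehyde and mitochondrial members of the family, and their counts were found by Ensembl identifier. They are 10 of 21 mouse genes of the family that were looked up here, among 56748 genes in the count tables. They were chosen by a rule that used measured values, the difference between training and sedentary hearts in the counts of these same libraries, so that difference is given for them as a description, without p-values, and the count of those past the FDR stands beside the share over all genes.

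The study asked which genes change in the heart under forced endurance training. RNA was measured in whole hearts, ventricles with both atria, of wild-type male C57BL/6 mice that were bought at 8 weeks of age. In the training group (5 hearts), mice ran on a small-animal treadmill for 8 weeks, 120 min per session, 5 days per week, at 15 m/min, after a rest and a week of acclimatisation. The sedentary group (5 hearts) held mice of the same age and strain that did not train. Each library came from 1 heart. A whole heart mixes chambers and cell types, so fewer cells of a type and less RNA per cell cannot be told apart.

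In the heart these enzymes meet several kinds of aldehyde. Members of the ALDH1A group turn retinal, made from vitamin A, into retinoic acid, the ligand of nuclear receptors that direct heart and epicardium development. ALDH2 sits in the mitochondrial matrix and clears acetaldehyde and the reactive products of lipid peroxidation. ALDH3 enzymes act on fatty aldehydes that arise from membrane lipids. Others close a step of a larger pathway, such as the breakdown of valine, thymine or lysine, or the synthesis of carnitine, which carries fatty acids into mitochondria.

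The promoters of the fatty aldehyde genes are shown because Aldh3b3 had the highest log2 fold change of the 10 genes and Aldh3b1, its near neighbour on chromosome 19, one close to 0. They run from 250 bases before to 50 bases after the start that RefSeq gives on GRCm38.p6, an older build than that of the counts, and are written 5′ to 3′ on the strand of the gene. Capitals mark the motifs that a search of both strands found.
Aldh3b3, chr19:3958558-3958857, plus strand: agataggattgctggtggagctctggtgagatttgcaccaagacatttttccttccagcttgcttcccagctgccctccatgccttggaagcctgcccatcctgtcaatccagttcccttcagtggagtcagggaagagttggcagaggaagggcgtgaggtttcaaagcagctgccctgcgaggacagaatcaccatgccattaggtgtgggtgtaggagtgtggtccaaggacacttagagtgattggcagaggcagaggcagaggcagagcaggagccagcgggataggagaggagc
Aldh3b1, chr19:3929729-3930028, minus strand: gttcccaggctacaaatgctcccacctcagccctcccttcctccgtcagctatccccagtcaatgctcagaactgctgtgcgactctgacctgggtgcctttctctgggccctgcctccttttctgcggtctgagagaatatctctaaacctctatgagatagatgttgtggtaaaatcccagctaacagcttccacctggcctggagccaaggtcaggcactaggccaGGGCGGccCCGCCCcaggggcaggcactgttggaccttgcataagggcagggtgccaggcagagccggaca
Aldh3a2, chr11:61267137-61267436, minus strand: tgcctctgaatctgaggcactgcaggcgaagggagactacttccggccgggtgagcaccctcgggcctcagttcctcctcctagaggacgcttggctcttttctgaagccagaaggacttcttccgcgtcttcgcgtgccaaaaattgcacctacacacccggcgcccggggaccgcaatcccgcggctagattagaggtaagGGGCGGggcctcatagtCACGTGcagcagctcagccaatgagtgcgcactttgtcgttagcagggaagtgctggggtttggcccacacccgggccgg

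Aldh3b3 had none of the 7 motifs searched in this window. Aldh3b1 had the GC box GGGCGG at 2 places, once on each strand, and Aldh3a2 had 1 GC box and 1 E-box, CACGTG. A GC box was found in 35.7% and an E-box in 7.15% of all 32851 promoters in the table. The 3 windows held 55.7% (Aldh3b3), 58.7% (Aldh3b1) and 61.7% (Aldh3a2) G and C, where the median promoter held 52.7%. Of the 10 genes, 7 were in the table, with 9 promoters between them. The antioxidant response element TGACNNNGC, present in 12.4% of all promoters, was found in those of Aldh1a2 and Aldh9a1. The TATA box TATAAA (13.6% of all promoters) and the response elements for retinoic acid (the direct repeat DR5, 0.00913%), for PPAR (the direct repeat DR1, 0.0396%) and for glucocorticoids (the inverted repeat, 0.0487%) were found in none of the 9.

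Levels are given as CPM, reverse-strand counts per 1000000 counts of a library after TMM scaling, an adjustment for differences in library composition. The difference between groups is given as a log2 fold change from edgeR, positive where the training hearts were higher, with its standard error (SE), and group means are given with the SD over 5 hearts. The libraries held 29461697 to 35945417 counts on genes in the training group and 35196993 to 39431030 in the sedentary group. All 10 genes passed the filter on low counts. The lowest count of any of them in a heart was 28, for Aldh3b3, and the highest 12240, for Aldh2.

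Aldh1a1 encodes a cytosolic retinal dehydrogenase (ENSMUSG00000053279, chromosome 19 of GRCm39, 20469539 to 20622825). It stood at 35.3, 26.3, 41.5, 30.2 and 31.2 CPM in training hearts 1 to 5 and at 32.6, 33.9, 26.3, 31.0 and 26.5 CPM in sedentary hearts 1 to 5. The groups overlapped, with training hearts 1 and 3 above every sedentary heart. Mean levels were 32.9 ± 5.75 and 30.1 ± 3.51 CPM (SD, n = 5 each), a log2 fold change of 0.13 (SE 0.11).

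Aldh1a2, the retinal dehydrogenase that makes most retinoic acid in the embryo (ENSMUSG00000013584, chromosome 9, 71122630 to 71203527), varied widely between hearts. Its training hearts held 7.98, 10.3, 11.0, 7.94 and 6.60 CPM and its sedentary hearts 10.2, 6.60, 9.72, 8.25 and 6.52 CPM. Both groups spread from near 6.5 to above 10 CPM, and the means of 8.76 ± 1.82 and 8.25 ± 1.70 CPM differed by less than either SD. The log2 fold change was 0.088 (SE 0.15). Its direction was not stable, since it was −0.0072 without training heart 3 and −0.21 where the mean log2 CPM of 8 atrial marker genes was added to the fit as a covariate, called the atrial covariate below.

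Aldh1a3, the third retinal dehydrogenase (ENSMUSG00000015134, chromosome 7, 66040638 to 66077850), was scarce. Training hearts held 2.12, 2.15, 2.49, 3.77 and 2.36 CPM, and sedentary hearts 2.66, 1.58, 2.13, 1.48 and 2.27 CPM. Only training heart 4 lay above every sedentary heart, although all 5 training hearts were above the sedentary mean. With means of 2.58 ± 0.682 and 2.02 ± 0.493 CPM the log2 fold change was 0.34 (SE 0.19), and it was 0.17 without training heart 4.

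Among the fatty aldehyde genes, Aldh3a2 encodes the fatty aldehyde dehydrogenase of the endoplasmic reticulum, whose human counterpart is lost in Sjögren-Larsson syndrome (ENSMUSG00000010025, chromosome 11, 61114243 to 61158841). Levels of 30.4, 31.7, 33.3, 32.7 and 30.4 CPM in the training hearts faced 29.4, 30.1, 29.9, 26.9 and 30.7 CPM in the sedentary hearts. All training hearts were above the sedentary mean and 3 of them above every sedentary heart. The spread was small, with an SD of 1.33 CPM in training and 1.46 CPM in sedentary hearts, and the log2 fold change was 0.11 (SE 0.047).

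Aldh3b3, which encodes a membrane-bound enzyme for long-chain aldehydes (ENSMUSG00000037263, chromosome 19, 4008645 to 4022103), showed the clearest separation. It was at 2.75, 1.69, 2.65, 2.58 and 2.02 CPM in the training hearts and at 1.17, 1.23, 0.745, 1.28 and 1.29 CPM in the sedentary hearts. Every training heart was above every sedentary heart, with 1.69 CPM as the lowest training and 1.29 CPM as the highest sedentary value. The means of 2.34 ± 0.459 and 1.14 ± 0.227 CPM stand 2.05-fold apart, a log2 fold change of 1.04 (SE 0.18). Between 28 and 99 reads per heart lie behind these values, as few as for Aldh3b1 (41 to 90) and Aldh1a3 (52 to 121). The RSEM count of this gene was 1.02 to 1.19 times the count of uniquely mapped reads, and 6.73% of the 100-base stretches of its transcripts also occur in Aldh3b2 or Aldh3b1.

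Aldh3b1 encodes a closely related enzyme (ENSMUSG00000024885, chromosome 19, 3963488 to 3979808) and lies 28837 bases from Aldh3b3, on the other strand. Training hearts held 1.92, 2.00, 1.82, 1.49 and 1.76 CPM and sedentary hearts 2.24, 1.20, 2.26, 1.51 and 1.70 CPM. The training hearts all fell inside the sedentary range, and the means of 1.80 ± 0.196 and 1.78 ± 0.464 CPM were nearly the same. The log2 fold change was 0.012 (SE 0.17), with values on both sides of 0 over 19 alternative fits, from −0.21 to 0.12.

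Both Aldh3b genes sit in a small cluster. Unc93b1 lies between them, with means of 18.2 CPM in training and 18.2 CPM in sedentary hearts (log2 fold change 0.0018, SE 0.084). Aldh3b2 starts 220 bases after the end of Aldh3b3, on the same strand. It was at 0.503 ± 0.284 and 0.233 ± 0.178 CPM (log2 fold change 1.06, SE 0.48, adjusted p = 0.234 in edgeR), with 2 to 30 reads per heart. In Aldh3b2, 14% of the 100-base stretches also occur in Aldh3b3, and reads from them would not be unique to either gene. The next genes outward, Ndufs8 and Tcirg1 beside Aldh3b1 and Acy3 beyond Aldh3b2, had log2 fold changes of −0.12 (SE 0.044), 0.0043 (SE 0.093) and −0.039 (SE 0.058), none past an FDR of 0.1 in edgeR.

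Aldh2, the mitochondrial acetaldehyde dehydrogenase (ENSMUSG00000029455, chromosome 5, 121704090 to 121732089), had the most reads of the 10 genes. Its levels were 345, 285, 328, 341 and 329 CPM in the training hearts and 275, 288, 274, 304 and 299 CPM in the sedentary hearts. Training hearts 1, 3, 4 and 5 lay above all sedentary hearts and training heart 2 lay among them. Means of 326 ± 23.9 and 288 ± 13.8 CPM gave a log2 fold change of 0.18 (SE 0.054), a 1.13-fold difference. Leaving out training heart 2 gave 0.22, and leaving out training heart 1 gave 0.16.

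Aldh6a1 closes a step in the breakdown of valine and thymine in mitochondria (ENSMUSG00000021238, chromosome 12, 84476966 to 84497800). Training hearts held 276, 236, 244, 280 and 274 CPM, sedentary hearts 258, 268, 259, 270 and 261 CPM. Training hearts lay on both sides of the narrow sedentary range, 3 above and 2 below it, with an SD of 20.7 CPM against 5.46 CPM. The log2 fold change was −0.0068 (SE 0.051) and turned to 0.046 where library totals alone were used for scaling. Of its 100-base stretches, 41.5% also occur in Bbof1 or Lin52, which overlap it on the other strand, but the counting used strand and reads on the other strand made up 0.514% of those over the gene.

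Aldh7a1 acts in the breakdown of lysine (ENSMUSG00000053644, chromosome 18, 56642759 to 56706023). It varied least among the training hearts, with 44.4, 46.2, 44.8, 46.8 and 47.0 CPM, beside 44.4, 42.7, 40.8, 42.0 and 45.2 CPM in the sedentary hearts. Training hearts 2, 4 and 5 were above every sedentary heart. Its log2 fold change was 0.090 (SE 0.041), or 0.14 with library totals alone.

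Aldh9a1 oxidises an aldehyde on the way to carnitine (ENSMUSG00000026687, chromosome 1, 167177536 to 167196101). The values were 46.9, 48.6, 42.5, 49.3 and 50.6 CPM in training and 46.1, 45.9, 45.5, 51.8 and 44.0 CPM in sedentary hearts. A sedentary heart had the highest level and a training heart the lowest. The difference was close to 0, with a log2 fold change of 0.028 (SE 0.056).

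**Figure D1:**
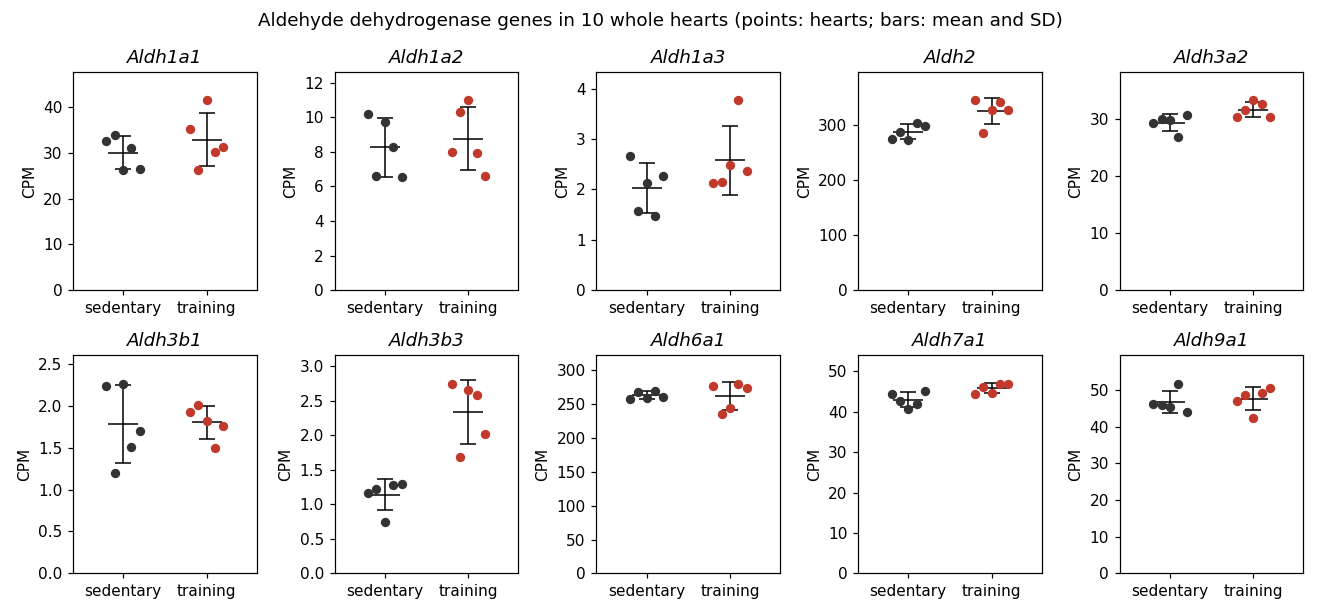
Level in CPM (y axis, from 0, a scale for each gene) of the 10 aldehyde dehydrogenase genes in 5 sedentary and 5 training hearts (points), with the group mean and SD as bars. Aldh3b3 is the gene whose groups do not overlap, with 1.69 to 2.75 CPM in training and 0.745 to 1.29 CPM in sedentary hearts.

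Read together, 9 of the 10 log2 fold changes were above 0 and 1 below, with a median of 0.099. Over all 15454 genes tested the median was 0.00026, with 7738 above 0 and 7716 below, and the median size of a log2 fold change in either direction was 0.092. With library totals alone the median of all genes moved to 0.053. At an FDR below 0.1, 2 of the 10 genes were called, Aldh2 and Aldh3b3, both higher in training, beside 7.01% of all genes tested (2.75% higher and 4.26% lower). In CPM, groups did not overlap for 1 of the 10, Aldh3b3, beside 5.06% of all genes (2.12% higher and 2.94% lower). Since the genes were named from this contrast, nothing is read from these counts. Between hearts of a group, the coefficient of variation ran from 2.07% (Aldh6a1, sedentary) to 26.5% (Aldh1a3, training).

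To compare levels between genes, counts have to be set against transcript length, which the TPM values of RSEM do. Aldh2 was the most abundant of the 10, with 258.5 ± 26.8 TPM over the 10 hearts (SD). Aldh6a1 followed at 81.6 ± 5.01 TPM, Aldh9a1 at 22.0 ± 2.26 TPM, Aldh7a1 at 21.2 ± 1.71 TPM, Aldh1a1 at 17.4 ± 3.02 TPM and Aldh3a2 at 12.6 ± 1.20 TPM. Aldh1a2 reached 4.01 ± 0.909 TPM. The lowest were Aldh3b1 (0.969 ± 0.197 TPM), Aldh3b3 (0.938 ± 0.483 TPM) and Aldh1a3 (0.857 ± 0.241 TPM).

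Aldh2 was above Aldh6a1, Aldh6a1 above Aldh9a1, Aldh3a2 above Aldh1a2 and Aldh1a2 above Aldh3b1 without overlap between the ranges over hearts, at ratios of the means from 3.14 to 4.13. The other neighbours overlapped. Aldh9a1 exceeded Aldh7a1 in 8 of 10 hearts and Aldh7a1 exceeded Aldh1a1 in 9 of 10. The ratios of their means were 1.04 and 1.22, and these differences within hearts were not tested. Aldh1a1 was above Aldh3a2 in each of the 10 hearts although their ranges overlapped. Among the 3 lowest genes the order differed between the groups, since the Aldh3b3 means were 1.31 ± 0.400 TPM in training and 0.562 ± 0.106 TPM in sedentary hearts (SD, n = 5 each). In the sedentary hearts Aldh3b3 was below Aldh3b1 in 5 of 5 and above Aldh1a3 in 1 of 5. In the training hearts it was above Aldh3b1 in 3 of 5 and above Aldh1a3 in 5 of 5. Among the retinal dehydrogenases, Aldh1a1 was thus the most abundant and Aldh1a3 the least. The TPM values were not corrected for library composition. On this scale training hearts ran higher for Aldh2, at 246.45 to 295.94 TPM beside 229.19 to 246.01 TPM in sedentary hearts. The Aldh2 groups thus just missed overlap in TPM, while they overlapped in CPM. The length that RSEM assigned to Aldh3b3 varied from 1772 to 2966 bases between hearts, which enters its TPM.

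**Figure D2:**
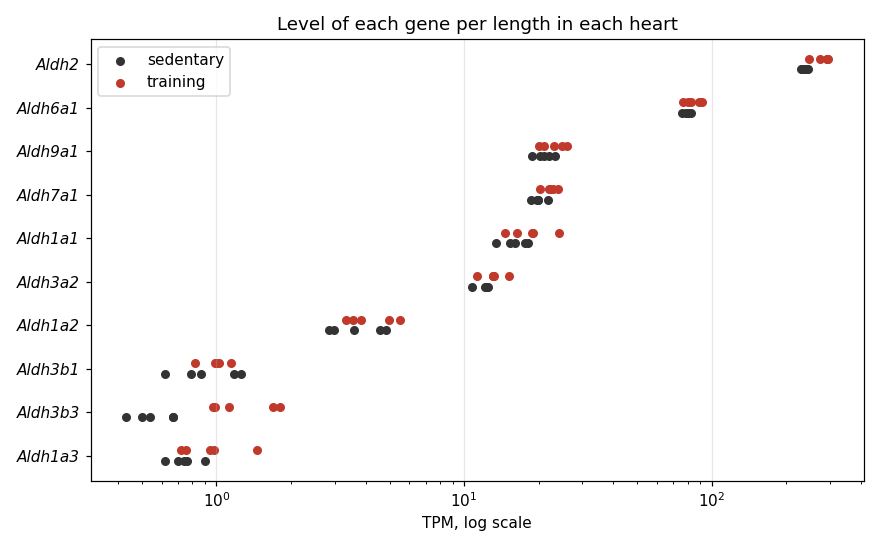
TPM (x axis, log scale) of each gene in each heart, genes ordered by their mean over the 10 hearts, with sedentary hearts as dark and training hearts as red points. The levels span from 0.43 TPM for Aldh3b3 in sedentary heart 2 to 295.94 TPM for Aldh2 in training heart 5.

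The other 11 genes of the family are outside the rule, but they too were listed with earlier results of these data known. Enough counts to be tested were found for 10 of them. At an FDR below 0.1 in edgeR, Aldh1l2 and Aldh1b1 were called, each higher in training, and none was called lower. This is 20% of the tested ones, beside 7.01% of all genes tested (2.75% higher and 4.26% lower). Since the list was drawn up with earlier results known, nothing is read from this share. Aldh1l2, the mitochondrial enzyme that oxidises 10-formyltetrahydrofolate, was at 20.5 ± 3.10 CPM in training and 15.2 ± 1.49 CPM in sedentary hearts (log2 fold change 0.43, SE 0.10, adjusted p = 0.0344 by edgeR's quasi-likelihood F test, adjusted over all tested genes after Benjamini and Hochberg). Of its 5 training hearts, 4 were above all sedentary hearts. In Aldh1l2, 12.1% of the 100-base stretches also occur in Nopchap1.

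Aldh1b1, a mitochondrial relative of Aldh2, was at 35.3 ± 4.77 and 26.7 ± 4.88 CPM (log2 fold change 0.40, SE 0.12, adjusted p = 0.0757 from the same edgeR test). All 5 training hearts were above the sedentary mean and 3 above every sedentary heart. Its call held in 2 of the 10 fits that left out 1 heart, those without training heart 2 or sedentary heart 1. Its adjusted p was 0.170 in edgeR without training heart 3, and 0.695 in edgeR with the atrial covariate, where its log2 fold change was 0.12. The same covariate ended the call of Aldh1l2, whose log2 fold change was then 0.32 (adjusted p = 0.372 in edgeR). Its SE was 0.13 with the covariate and 0.10 without it.

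Higher means that did not pass the test were seen for Aldh1a7, a rodent relative of Aldh1a1, with 0.933 ± 0.704 and 0.370 ± 0.143 CPM (log2 fold change 1.32, SE 0.48, adjusted p = 0.148 in edgeR). It ranged from 0.200 to 1.99 CPM over the training hearts, with training heart 2 below every sedentary heart. Aldh3a1 had 1.38 ± 0.160 and 1.04 ± 0.246 CPM (log2 fold change 0.42, SE 0.18) and Aldh1l1 4.97 ± 0.900 and 4.16 ± 0.616 CPM (0.25, SE 0.13). The log2 fold changes of Aldh16a1 (16.3 and 15.5 CPM), Aldh18a1 (12.3 and 12.1 CPM), Aldh5a1 (59.6 and 60.5 CPM) and Aldh4a1 (74.0 and 76.5 CPM) were 0.081, 0.017, −0.022 and −0.048. Aldh8a1 was not tested, with 0 to 5 reads per heart. The 10 other genes had a median log2 fold change of 0.33, with 8 above 0.

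**Figure D3:**
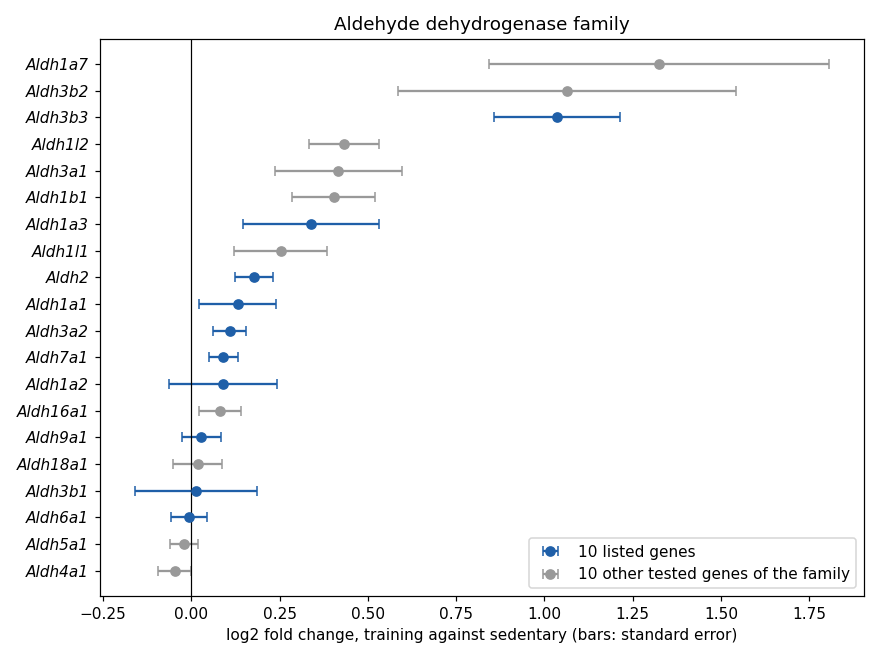
Log2 fold change between training and sedentary hearts (x axis, positive where training was higher, bars are standard errors) for the 10 named genes (blue) and the 10 other tested genes of the family (grey), ordered by value. The scarce genes Aldh1a7 and Aldh3b2 have the widest bars, with standard errors of 0.48 each, and Aldh3b3 at 1.04 is the highest of the named genes.

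Genes that supply, use or clear the same aldehydes were taken from 10 hand-written lists with 89 genes, of which 75 were tested. In these, 5 rose and 3 fell at an FDR below 0.1 in edgeR, 10.7% of the tested genes beside 7.01% of all genes, with a median log2 fold change of 0.00097. These lists too were drawn up with earlier results of these data known. Nothing is therefore read from this share, and adjusted p-values of their genes are descriptive. With library totals alone, 5 rose and 1 fell.

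Of 9 tested genes of retinoid supply, 4 had a log2 fold change above 0 and 5 below, with a median of −0.041. Adh1 (−0.25, SE 0.091) and Lpl (−0.16, SE 0.055) did not pass, though for Lpl every training heart was below every sedentary heart. Around the retinal dehydrogenases, Rbp4, the retinol carrier of the blood, rose. It was at 1.46 to 3.45 CPM in training and 0.934 to 1.64 CPM in sedentary hearts, with 4 training hearts above every sedentary heart (log2 fold change 0.97, SE 0.24, adjusted p = 0.0451 in edgeR). No gene of retinoic acid transport and breakdown passed the test of the 2 that could be tested, nor did any of the 6 retinoic acid and retinoid X receptors. Over all genes tested, 7.01% passed. Cyp26b1, which breaks retinoic acid down, was at 1.90 to 8.47 CPM in training and 2.57 to 5.14 CPM in sedentary hearts (log2 fold change 0.47, SE 0.32).

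Of 11 tested genes that give rise to fatty aldehydes or use them, 2 were called (18.2%, beside 7.01% of all genes), both higher in training. Sgpp1, a phosphatase of sphingosine 1-phosphate, was at 33.7 ± 0.983 and 29.9 ± 1.35 CPM (log2 fold change 0.17, SE 0.043, adjusted p = 0.0477). Far1, which makes the fatty alcohols of ether lipids, was at 27.0 ± 1.82 and 23.8 ± 0.809 CPM (0.18, SE 0.052, adjusted p = 0.0697, both edgeR). In neither gene did the groups overlap, which held for 5.06% of all genes tested. Sgpl1, the lyase that releases a fatty aldehyde from sphingosine 1-phosphate, had a log2 fold change of 0.13 (SE 0.058) and did not pass.

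Of 15 genes that clear reactive aldehydes by other routes, Hagh alone was called, a share of 6.67% beside 7.01% of all genes. Hagh, the glyoxalase that completes the detoxification of methylglyoxal, fell from 48.4 ± 0.794 to 41.2 ± 1.24 CPM (log2 fold change −0.23, SE 0.037, adjusted p = 0.00871 in edgeR), with no overlap between groups. Among 6 amine oxidases and polyamine genes 1 was called (16.7%, beside 7.01% of all genes), Smox, which oxidises spermine. It was lower in training (log2 fold change −0.24, SE 0.059, adjusted p = 0.0443 in edgeR), at 13.9 to 16.7 and 17.2 to 19.3 CPM.

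In the valine and thymine pathway of Aldh6a1, Hibch was the only gene called of 12 tested (8.33%, beside 7.01% of all genes). It was at 67.6 ± 4.80 CPM in training and 75.9 ± 3.41 CPM in sedentary hearts (log2 fold change −0.17, SE 0.052, adjusted p = 0.0947 in edgeR). None of 4 tested lysine breakdown genes and neither of the 2 tested carnitine genes passed, beside the same 7.01% of all genes. Slc22a4, a transporter of the carnitine family, was at 6.06 ± 0.797 and 7.69 ± 1.11 CPM (log2 fold change −0.35, SE 0.11, adjusted p = 0.108 in edgeR). Among 8 tested targets of the antioxidant factor NRF2, 1 was called (12.5%, beside 7.01% of all genes), Osgin1, which rose. It was at 4.33 to 5.07 CPM in training and 3.12 to 4.20 CPM in sedentary hearts (log2 fold change 0.35, SE 0.10, adjusted p = 0.0816 in edgeR). Nqo1 at 33.7 and 37.0 CPM did not pass.

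Leaving out sedentary heart 2 left 2 of the 8 calls, Hagh among them, and Hagh held in each of the 10 fits without 1 heart. Rbp4 and Sgpp1 lost their calls without training heart 3 or 4 and without sedentary heart 2, and Smox without training heart 4 and without sedentary heart 2. Of the fits without 1 heart, Hibch held only without training heart 1 or sedentary heart 5, Far1 only without training heart 2 or 4 or sedentary heart 1, and Osgin1 only without sedentary heart 1 or 5. Without the filter on low counts, Sgpp1 (adjusted p = 0.114 in edgeR) and Far1 (0.122) lost their calls, and with library totals alone Smox (0.116) and Hibch (0.223) lost theirs. None of the 8 was called with the atrial covariate, where adjusted p ran from 0.106 (Hagh) to 0.507 (Sgpp1) in edgeR. That fit called 0.563% of all genes tested.

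Markers of the cell types that a whole heart holds were summed in every heart, and no marker was at 0. Each list was also scored as its mean log2 CPM, and groups were compared by a two-sided exact permutation test, adjusted over 9 lists. The marker lists were drawn up with earlier results of these data known, so p-values for the lists and their genes are descriptive. The 6 cardiomyocyte markers had a score lower by 0.13 in training hearts (exact permutation test, adjusted p = 0.0714). Of them Actc1 alone was called, lower in training (log2 fold change −0.38, SE 0.077, adjusted p = 0.022 in edgeR). The 5 endothelial markers were lower by 0.10 (adjusted p = 0.0714, exact permutation test), and Tie1 fell (log2 fold change −0.16, SE 0.046, adjusted p = 0.0765 in edgeR). The 8 atrial markers were higher by 0.65 and the 6 fibroblast markers by 0.22 (adjusted p = 0.0714 each, exact permutation test). Before adjustment, p in that permutation test was 0.00794 for endothelium, 0.0159 for cardiomyocytes and 0.0317 for atria and for fibroblasts.

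Of the atrial markers, Sln, Dkk3 and Stard10 rose, with log2 fold changes of 0.75, 0.73 and 0.48 (adjusted p = 0.0316, 0.0278 and 0.0613 in edgeR). Of the fibroblast markers Pdgfra (0.24) and Lum (0.27) rose (adjusted p = 0.0627 and 0.0887 in edgeR). Leaving out 1 heart, the atrial score missed the threshold in 6 of 10 comparisons (without training heart 1, 3, 4 or 5 or sedentary heart 2 or 5), the fibroblast score in these and without sedentary heart 4, and the cardiomyocyte score in 5 of them (not without training heart 1). Sln, Dkk3 and Actc1 kept their calls in each of these fits, and Stard10, Pdgfra, Lum, Tie1, Tagln and Rgs5 each lost theirs in at least 5, among them those without training heart 3 or 4 or sedentary heart 2. The other lists did not pass. These were mural cells (Tagln rose and Rgs5 fell), epicardium, macrophages, adipocytes and erythroid cells, with adjusted p from 0.357 upward in the exact permutation test.

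The summed level of the 8 atrial markers was 5293 to 7949 CPM in training and 2924 to 7106 CPM in sedentary hearts. Sedentary heart 1 had the highest atrial sum of its group, 7106 CPM, inside the training range. With the atrial covariate the log2 fold change of Aldh3b3 was 0.97 (SE 0.25) and that of Aldh2 0.18 (SE 0.074), and neither was called, beside 0.563% of all genes tested. Those of Aldh1a3 and Aldh1a1 were 0.15 (SE 0.25) and 0.014. The atrial score itself differed between the groups, so covariate and group cannot be fully told apart in this fit. Without the covariate the SE was 0.18 for Aldh3b3 and 0.054 for Aldh2. For Aldh1a2, whose gene is active in the epicardium, the 8 epicardial markers summed to 92.7 to 134 CPM in training and 71.4 to 127 CPM in sedentary hearts. Training heart 3 had the highest and sedentary heart 5 the lowest epicardial sum, and the same hearts had the highest and the lowest Aldh1a2. The match is not particular to the epicardium, since training heart 3 also had the highest atrial (7949 CPM) and fibroblast (1364 CPM) sums. Sedentary heart 2 had the lowest of both. The 5 adipocyte markers ranged most between hearts, from 14.7 to 148 CPM, with the highest sum in training heart 4, where Aldh1a3 was also highest. The part of these cell types in the levels of the 10 genes was not tested.

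**Figure D4:**
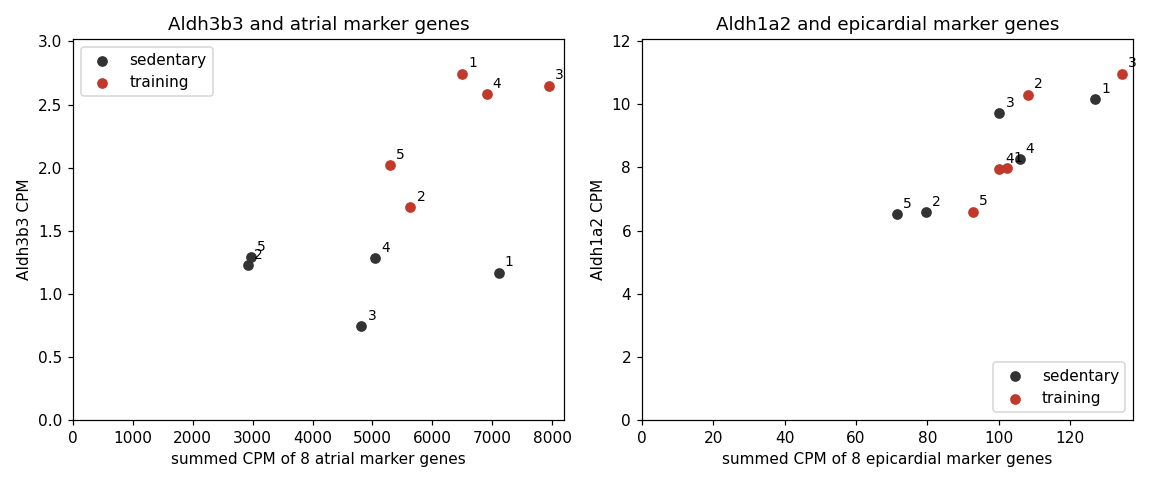
Left, Aldh3b3 in CPM against the summed CPM of 8 atrial marker genes. Right, Aldh1a2 in CPM against the summed CPM of 8 epicardial marker genes. Each point is a heart with its number in the group, sedentary hearts dark and training hearts red. The atrial sum ran from 2924 CPM in sedentary heart 2 to 7949 CPM in training heart 3. Aldh1a2 ran from 6.52 CPM in sedentary heart 5 to 11.0 CPM in training heart 3.

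Genes with the pattern most like 3 of the members were found by the root mean square difference of log2 CPM over the 10 hearts, after centring within each group and scaling to unit SD, among the 13116 genes whose mean reached 1 CPM. Hence this likeness concerns the spread between hearts of a group and not the difference between groups. For Aldh1a2 the nearest were Sox9, C1qa and Slc26a3, at 0.311 to 0.320 SD, where the median gene was at 1.42 SD. Sox9 was at 5.62 CPM in training heart 3 and 2.51 CPM in sedentary heart 2, near the extremes of Aldh1a2. For Aldh1a1 the nearest were Serinc3 (0.344 SD), Opcml (0.415 SD) and Fibin (0.43 SD), and for Aldh3b3 they were Rnf181 (0.346 SD), H1f4 (0.41 SD) and Zfp11 (0.43 SD). With 10 hearts and this many genes, values of this size are a description of these libraries.

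**Figure D5:**
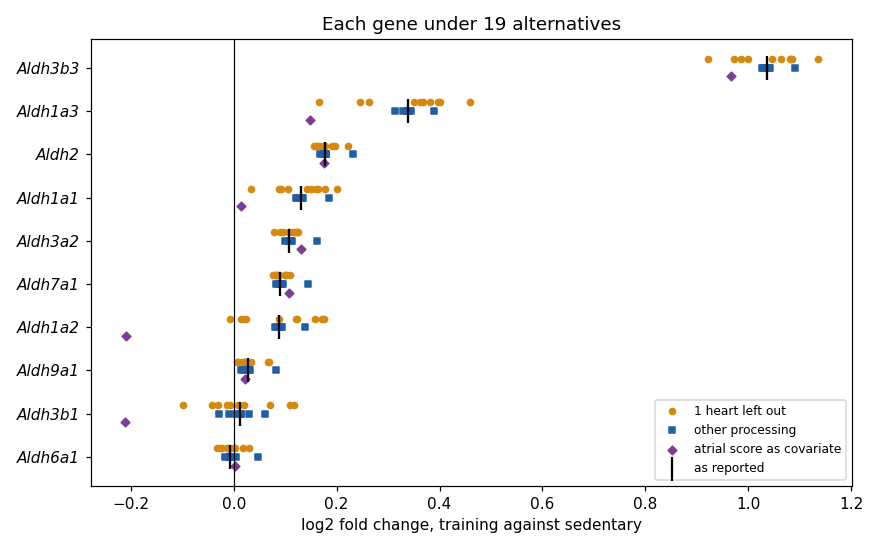
Log2 fold change between training and sedentary hearts (x axis, positive where training was higher) for each of the 10 genes under 19 alternative fits. The black line is the value as reported, orange points leave out 1 heart, blue squares change the processing and purple diamonds add the atrial covariate. Aldh3b3 stayed between 0.92 and 1.13, and Aldh1a2, Aldh3b1 and Aldh6a1 lay on both sides of 0.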

How the data were processed

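RNA of 10 whole hearts was sequenced by the authors as directional poly-A libraries, single reads in 1 pool. Per the labels and methods, reads were aligned to GRCm39 (release 107) with STAR 2.7.10a. The authors deposited, for each heart, unnormalized counts of uniquely mapped reads per gene for each strand, and expected counts, TPM and FPKM from RSEM 1.3.3, whose strand setting is not given in the sources used here. The deposited FPKM were not used.

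Reverse-strand counts were used, 94.92% to 95.65% of those on either strand. Rows that name no gene (24.29% to 26.07% of the reads) were left out. GENCODE M39 gave symbols to 56017 of 56748 identifiers. In a list, Akr1b3 was found under its other symbol and Tmlhe had no match.

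Groups came from the labels. The comparison used edgeR 4.0.16 under R 4.3.3, with its default expression filter, TMM normalization and quasi-likelihood F tests, adjusted by Benjamini-Hochberg over all tested genes (FDR below 0.1), after tests on simulated data. Scores used log2 CPM with a prior count of 2 and an exact permutation test in scipy 1.17.1, whose smallest two-sided p is 0.00794.

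The genes and lists were chosen with earlier results of these data known. Besides the 10 genes, the text names the other family genes, called genes of each list (1 of which is counted but not reported here), neighbours of the Aldh3b genes, and the 3 most alike genes for Aldh1a1, Aldh1a2 and Aldh3b3. Mouse numbers were not treated as pairs in the main comparison. DESeq2 1.42.0 was an alternative. Promoters came from RefSeq (GRCm38.p6). Nothing in the labels says whether hearts shared a litter or cage, and p-values measure the spread between hearts.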

Additional observations from a re-analysis of the deposited data

Results flagged for a closer look

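In a group of 5 hearts, a value was picked out where its gap to the nearest heart took more than 0.71 of the range of the group. Over 40 groups, the training and the sedentary hearts of 20 tested genes of the family, 3 hearts stood apart in this way, where chance picks about 1 group in 20. Aldh1a3 was at 3.77 CPM in training heart 4, with the other training hearts at 2.12 to 2.49 CPM. Aldh3b3 was at 0.745 CPM in sedentary heart 3, with the other sedentary hearts at 1.17 to 1.29 CPM, and its log2 fold change was 0.92 without that heart. Aldh9a1 was at 51.8 CPM in sedentary heart 4, with the other sedentary hearts at 44.0 to 46.1 CPM.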

How the results depend on the processing

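The log2 fold changes of 7 of the 10 genes kept their direction in 19 alternative fits, and those of Aldh1a2, Aldh3b1 and Aldh6a1 did not. With the atrial covariate, the number of genes called fell from 1084 to 87 among all genes. It fell to 0 among the 10 genes, 0 among the other family genes and 0 among the list genes, beside 0.563% of all genes tested. At so low a share, nothing is read from these zeros. The atrial score itself differed between the groups, and the part of atrial content in these lost calls was not tested. At an FDR below 0.05 there were 505 genes in all and 1 of the 10, Aldh3b3. Without a filter on low counts, and with RSEM expected counts, 1 of the 10 was called, Aldh3b3. Leaving out 1 heart gave 512 to 1490 genes in all, 1 to 2 of the 10 (Aldh3b3 in each fit and Aldh2 only without training heart 2), 1 to 3 of the other family genes and 2 to 9 list genes, with the fewest calls among all genes without training heart 4 or sedentary heart 3. Score differences ran from 0.49 to 0.82 for atria, 0.16 to 0.26 for fibroblasts, −0.16 to −0.11 for cardiomyocytes, and for macrophages from −0.090 to 0.0060, reversed without training heart 1 alone. Library totals alone turned the share of higher genes among the calls from 39.2% to 75.2%, of 1368 genes. DESeq2 called 1473 genes and 11 list genes. The mouse numbers shared by the groups were not treated as pairs in the main fit. Deviations of same-numbered hearts correlated at −0.097 to 0.159, but hearts of different numbers were not compared, so this cannot decide whether pairs exist. A replicate block on the mouse numbers gave 1137 genes, 2 of the 10, 2 other family genes and 8 list genes, and ended the call of Far1 (edgeR, adjusted p = 0.106). Depth limits the scarce genes most, since Aldh3b3, Aldh3b1 and Aldh1a3 had between 28 and 121 reads per heart. The causes of these changes were not tested.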
